A study of Homo sapiens with 18 samples.

Results

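PHGDH, PSAT1, PSPH, SHMT2, MTHFD2, ASS1, ASL, ASNS, SLC7A11 and CHAC1 are genes of the synthesis of serine, arginine and asparagine and of cystine uptake and glutathione breakdown. These 10 genes were taken by symbol from the 63677 genes listed in each table of the series, and all 10 were found and tested. The series measured polyadenylated RNA in tumours of 3 human neuroblastoma cell lines, SKNAS, LAN-1 and KELLY, grown as xenografts and collected from mice. Each line had an arm named Hmx1, after a homeobox transcription factor of the sympathetic lineage, and a control arm. There were 3 libraries per arm, 18 in all, in the order used below SKNAS Hmx1, SKNAS control, LAN-1 Hmx1, LAN-1 control, KELLY Hmx1 and KELLY control. The labels give no treatment for any library and give neither the direction nor the means of the change made to Hmx1. They name MYCN amplification for 2 of the KELLY control libraries and give no genotype for the others. Each arm is 1 cell line, and nothing says that libraries of an arm came from separate animals, so p-values cover library-to-library spread alone, and this may be technical.

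Cells make serine from a glycolytic intermediate in 3 steps, carried out by PHGDH, PSAT1 and PSPH. SHMT2 and MTHFD2 then pass a carbon from serine into the mitochondrial folate pool that feeds nucleotide synthesis. ASS1 and ASL build arginine from citrulline and aspartate, and ASNS builds asparagine from aspartate and glutamine. SLC7A11 is the light chain of the cystine importer, and CHAC1 degrades glutathione. Most of these genes are known targets of ATF4, the transcription factor of the amino acid response, and in neuroblastoma serine synthesis is known to be high where MYCN is amplified.

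ATF4 with its partners is known to bind the letters TGATGNAA, the amino acid response element, and MYC and MYCN the letters CACGTG, the E-box. The 250 bases before the start of the gene were searched on both strands in RefSeq, build GRCh38.p14, for the 7 of the 10 genes that its promoter table held, with 9 starts among them. PSPH, SHMT2 and SLC7A11 were not in that table. The sequences below are those of the genes whose level differed most between arms and of those with a match, 5′ to 3′ on the strand of the gene, with each match in capitals. They lie at chr1:119711684-119711933 (PHGDH, plus strand), chr9:78296875-78297124 (PSAT1, plus strand), chr9:130444711-130444960 (the second start of ASS1, plus strand), chr7:97872409-97872658 (the first start of ASNS, minus strand) and chr15:40953221-40953470 (CHAC1, plus strand).
PHGDH: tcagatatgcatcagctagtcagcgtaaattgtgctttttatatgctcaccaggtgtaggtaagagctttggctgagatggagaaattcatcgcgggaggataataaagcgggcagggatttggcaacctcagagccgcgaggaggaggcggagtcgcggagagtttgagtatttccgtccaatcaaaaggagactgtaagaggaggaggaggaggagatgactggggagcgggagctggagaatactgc
PSAT1: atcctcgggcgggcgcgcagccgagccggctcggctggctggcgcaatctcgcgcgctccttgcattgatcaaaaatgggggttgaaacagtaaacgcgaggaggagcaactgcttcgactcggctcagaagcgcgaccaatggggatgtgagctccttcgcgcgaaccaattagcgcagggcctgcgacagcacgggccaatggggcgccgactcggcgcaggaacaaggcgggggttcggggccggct
ASS1: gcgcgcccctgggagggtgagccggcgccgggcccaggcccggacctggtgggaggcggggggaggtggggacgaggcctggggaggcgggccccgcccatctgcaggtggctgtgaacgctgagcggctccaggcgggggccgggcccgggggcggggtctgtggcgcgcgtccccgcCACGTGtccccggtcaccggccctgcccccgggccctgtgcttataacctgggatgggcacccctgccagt
ASNS: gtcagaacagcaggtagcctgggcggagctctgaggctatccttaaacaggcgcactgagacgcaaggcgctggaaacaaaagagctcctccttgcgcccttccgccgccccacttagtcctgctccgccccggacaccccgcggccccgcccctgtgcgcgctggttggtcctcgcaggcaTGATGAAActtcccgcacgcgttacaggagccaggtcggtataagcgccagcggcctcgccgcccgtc
CHAC1: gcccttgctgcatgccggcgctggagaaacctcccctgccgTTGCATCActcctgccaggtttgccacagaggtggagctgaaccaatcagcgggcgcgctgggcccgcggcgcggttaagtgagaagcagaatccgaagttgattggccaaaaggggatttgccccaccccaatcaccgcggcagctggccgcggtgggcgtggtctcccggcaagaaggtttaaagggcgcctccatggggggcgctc
ASNS held TGATGAAA from 68 to 61 bases before its first start. CHAC1 held the same element on the opposite strand, read here as TTGCATCA, from 209 to 202 bases before its start. ASS1 held CACGTG from 71 to 66 bases before its second start. Neither motif was found in these windows of PHGDH, PSAT1, MTHFD2 or ASL, at the first start of ASS1 or at the second start of ASNS. Of 35116 promoter windows of the same length, 3.14% held the amino acid response element on either strand and 6.34% the E-box. The 2 motifs share no position in the windows shown.

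Values are TPM, relative transcript abundances that sum to the same total in every library, and are scaled for transcript length and can be compared between genes. Levels are means ± SD over 3 libraries. Changes and differences are on the log2(TPM + 1) scale with their standard error (SE), and a change passed at a limma p-value, adjusted by the Benjamini-Hochberg method over 18650 genes, under 0.05. The read depth behind each value is unknown. Each library had 21590 to 24901 genes with a value above 0. Mitochondrial transcripts took 3.95% to 30.6% of the TPM of a library, the most in KELLY control replicate 1. That library lay at -57.4 on the first principal component of KELLY, against -26.8 to 49.4 in the other KELLY libraries. LAN-1 Hmx1 replicate 1 lay at -18.0 on the first component of LAN-1, among the control libraries at -21.4 to -7.89, against 28.1 and 38.4 in the other Hmx1 libraries of that line. Human HMX1 was at 0.193 to 1.24 TPM in SKNAS Hmx1 tumours and at 0 in the 3 SKNAS control tumours, and did not differ past the threshold in any line. MYCN averaged 0.0502 and 0.0469 TPM in the Hmx1 and control arms of SKNAS, 787 and 867 in those of LAN-1, and 1472 and 1424 in those of KELLY. Of 8 neuroblastoma markers, all averaged at least 1 TPM in every arm except TH, the first enzyme of catecholamine synthesis, at 0.107 TPM in SKNAS Hmx1 tumours. Their sum was 2072 to 2420 TPM in SKNAS Hmx1 tumours and 1589 to 2084 TPM in SKNAS controls. In KELLY it was 4900 to 5666 and 3678 to 5995 TPM, and both lines overlap. In LAN-1 it was 2832 to 3023 and 4010 to 4403 TPM, without overlap. CHGA averaged 1420 and 2518 TPM there, and the list did not move one way. Of the 8, 1 rose and 1 fell in SKNAS, and 0 passed in LAN-1 and KELLY.

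Transcripts for the first steps of serine synthesis were lower in Hmx1 than in control tumours of SKNAS. PHGDH and PSAT1 each fell by about 1 on the log2 scale, while PSPH, SHMT2 and MTHFD2 did not change past the threshold. In LAN-1 tumours the gene that passed was ASS1 of arginine synthesis, 2.30-fold higher on the TPM + 1 scale with Hmx1, while ASL did not change past the threshold. In KELLY tumours none of the 10 genes passed.

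**Figure D1:**
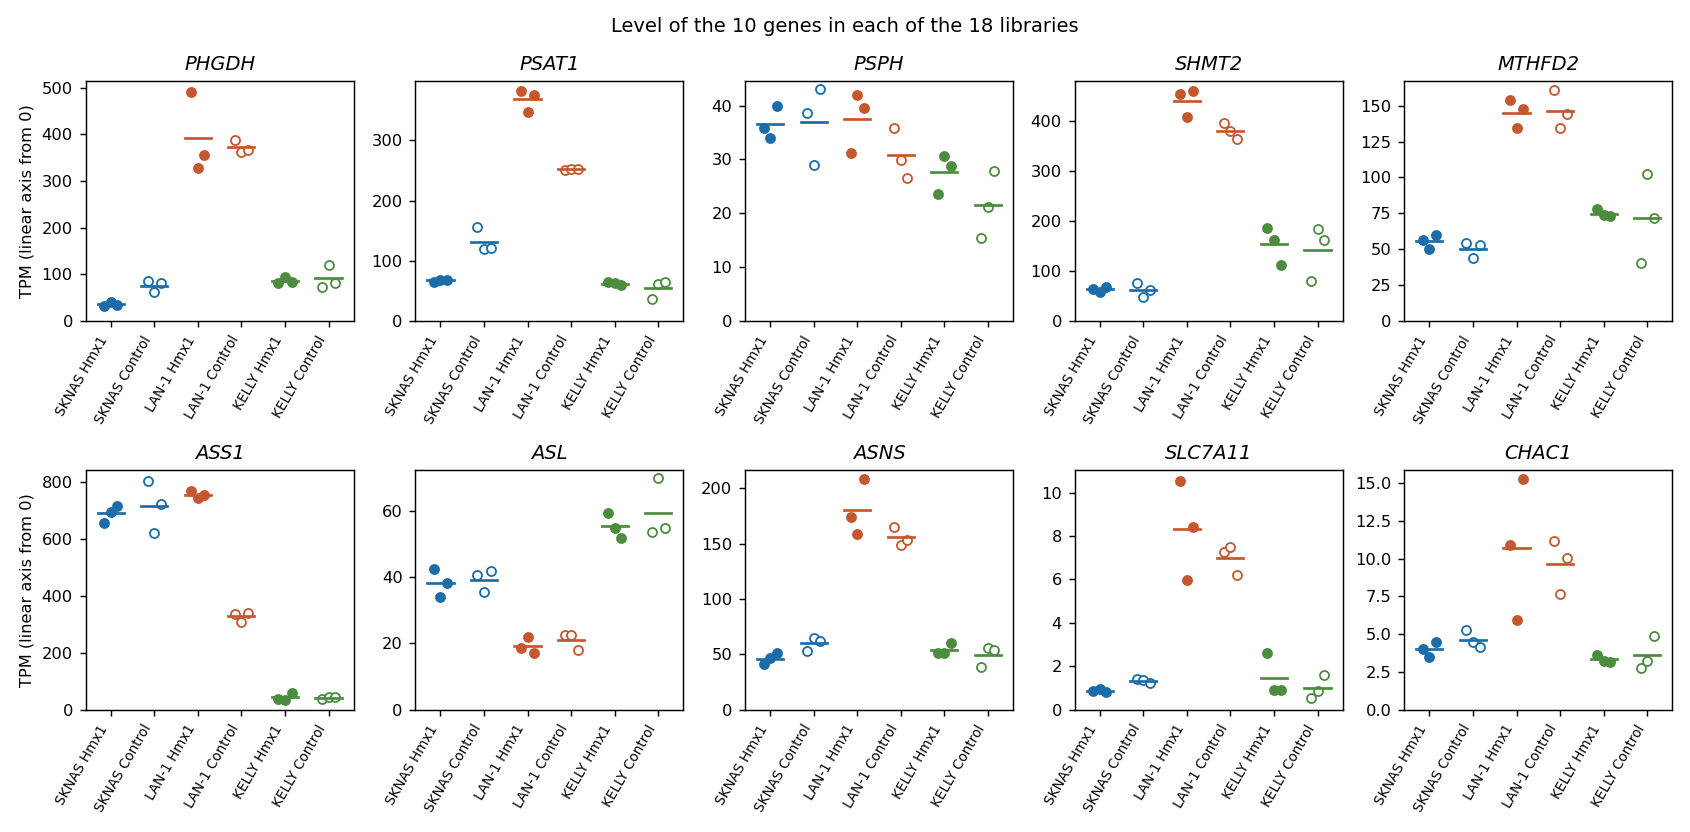
TPM of each of the 10 genes in each of the 18 libraries, on linear axes that start at 0 and differ between panels. Filled points are Hmx1 libraries, open points control libraries and bars the mean of 3. PHGDH and PSAT1 separate the SKNAS arms, at 32.4 to 39.7 against 61.1 to 85.5 TPM for PHGDH, and ASS1 separates the LAN-1 arms, at 743 to 768 against 307 to 340 TPM.

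PHGDH (ENSG00000092621, GRCh37 chromosome 1, 120202421 to 120286838, plus strand) encodes phosphoglycerate dehydrogenase, the first enzyme of the serine branch. It stood at 32.4, 39.7 and 35.0 TPM in SKNAS Hmx1 tumours, against 85.5, 61.1 and 80.5 TPM in SKNAS control tumours. All 3 Hmx1 libraries lay below all 3 controls. PHGDH fell by 1.05 on the log2 scale (SE 0.19, limma adjusted p = 0.00119). In LAN-1 it was at 491, 328 and 355 TPM with Hmx1 and at 387, 363 and 367 TPM in controls. The single high Hmx1 value belongs to replicate 1, the library placed among the controls on the first component, and the arms overlap. The LAN-1 change was 0.05 with all libraries and -0.12 without that library, and neither passed (limma adjusted p = 1 and 0.893). In KELLY, PHGDH was at 80.7, 94.8 and 83.9 TPM with Hmx1 and at 73.3, 120.42 and 81.8 TPM in controls, which overlap.

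PSAT1 (ENSG00000135069, GRCh37 chromosome 9, 80912059 to 80945009, plus strand) encodes the aminotransferase of the next step. It stood at 65.0, 68.3 and 68.7 TPM in SKNAS Hmx1 tumours, against 155, 118.68 and 120.8 TPM in SKNAS control tumours. The Hmx1 libraries lay close together and all below the controls. PSAT1 fell by 0.95 on the log2 scale (SE 0.17, limma adjusted p = 0.00138). In LAN-1 the arms were also apart, in the other direction: 381, 348 and 376 TPM with Hmx1, against 251, 253 and 253 TPM in controls. That change of 0.54 (SE 0.17) did not pass over all genes (limma adjusted p = 0.315), and it did when KELLY control replicate 1 was left out of the shared estimate of spread (0.0205). In KELLY, PSAT1 was at 64.0, 62.7 and 59.0 TPM with Hmx1 and at 36.2, 61.4 and 64.1 TPM in controls, where replicate 1 is the low value.

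PSPH (ENSG00000146733, GRCh37 chromosome 7, 56078744 to 56119297, minus strand), the phosphatase that releases serine, did not follow the steps before it. It averaged 36.6 ± 3.04 TPM in SKNAS Hmx1 tumours and 36.9 ± 7.26 TPM in SKNAS control tumours, a change of 0.00 with a 95% interval of -0.44 to 0.44. Within each library, the ratio of PHGDH to PSPH was therefore 0.905, 1.17 and 0.877 in SKNAS Hmx1 tumours, against 2.21, 2.11 and 1.86 in SKNAS controls, with no overlap. The ratio of PHGDH to PSAT1 was 0.498 to 0.582 in SKNAS Hmx1 tumours and 0.515 to 0.666 in SKNAS controls, which overlap. PSPH ranged over the other 4 arms from 15.3 to 41.9 TPM. Its pseudogene PSPHP1 averaged 25.9 ± 1.90 TPM in SKNAS Hmx1 and 27.3 ± 3.36 TPM in SKNAS control tumours and was at 0 in all 12 libraries of the other lines, so the PSPH values of SKNAS are uncertain where counting could split reads between the gene and its copy.

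In SKNAS the share of all tested genes that passed was 8.76%, with 4.96% rises and 3.80% falls. Of the 10 genes, 2 passed, PHGDH and PSAT1, both falls. The groups did not overlap for 4 of the 10, against 30.9% of all tested genes. The other non-overlapping genes were ASNS, at 41.1 to 50.9 TPM with Hmx1 and 53.3 to 64.9 TPM in controls, and SLC7A11, at 0.824 to 0.928 and 1.22 to 1.39 TPM. Their changes of -0.37 and -0.32 did not pass (limma adjusted p = 0.202 and 0.603). With the SKNAS libraries fitted alone, SLC7A11 did pass (-0.32, limma adjusted p = 0.0420). The median change of the 10 genes was -0.11, against 0.00 over all tested genes. MYC, a transcription factor of the E-box family, was lower as PHGDH and PSAT1 were, at 4.25 ± 0.236 TPM in SKNAS Hmx1 tumours and 20.6 ± 7.33 TPM in SKNAS controls. It fell by 1.98 (limma adjusted p = 1.40e-05), and its part in the result was not tested.

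Values of stromal markers moved between the SKNAS arms as well. The summed TPM of 7 fibroblast markers was 802 to 895 in SKNAS Hmx1 tumours and 1134 to 1334 in SKNAS controls, with none at 0. The list did not move one way. PDGFRA and LUM fell, COL1A1 and COL3A1 averaged 211 and 392 TPM with Hmx1 and 345 and 602 TPM in controls without passing, and the other 3 averaged higher with Hmx1 without passing. Of those 3, DCN was at 93.9 to 112.39 TPM with Hmx1 and 50.9 to 90.8 TPM in controls, PDGFRB at 34.4 to 45.1 and 20.2 to 33.2 TPM, and COL1A2 averaged 12.4 and 10.8 TPM. With median-ratio scaling 1 of the 7 rose and with quantile scaling 2 rose, beside 2 falls in each. The sum of 6 macrophage and leukocyte markers was 189 to 286 with Hmx1 and 77.3 to 105 in controls, with LYZ at 0 in all Hmx1 libraries and AIF1 at 0 in all controls. That sum is nearly all PTPRC, the pan-leukocyte gene, which averaged 231 ± 49.6 TPM with Hmx1 and 91.9 ± 14.2 TPM in controls and rose. The other 5 each averaged under 1.4 TPM in both arms. CD14 averaged 0.523 TPM with Hmx1 and 1.34 TPM in controls. It met the limit for testing, at least 1 TPM in at least 3 libraries, only through those controls. Its call as a fall is therefore not read as a result, and with median-ratio scaling 0 of the list fell. The sum of 6 endothelial markers was 6.23 to 9.13 with Hmx1 and 4.12 to 6.39 in controls, with PECAM1 at 0 in both arms. Of 4 tested, TEK was called a rise, at 3.01 to 3.60 TPM with Hmx1 and 0.959 to 1.27 TPM in controls. TEK too met the limit for testing only through the arm where it was high. PTPRC was at 0 in all libraries of LAN-1 and KELLY. The fibroblast sum reached at most 50.5 TPM in a LAN-1 library and 169 TPM in a KELLY library. Whether the SKNAS values of these markers come from stromal cells or from the tumour cells themselves was not tested. The sources used here do not say how mouse reads were handled. A tumour with fewer cells of a type cannot be told apart from less RNA per cell. The part of these markers in the falls of PHGDH and PSAT1 was not tested.

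ASS1 (ENSG00000130707, GRCh37 chromosome 9, 133320316 to 133376661, plus strand) encodes argininosuccinate synthase, the rate-limiting enzyme of arginine synthesis. It stood at 768, 743 and 752 TPM in LAN-1 Hmx1 tumours, against 335, 307 and 340 TPM in LAN-1 control tumours. The arms lie far apart, with little spread within either. ASS1 rose by 1.20 on the log2 scale (SE 0.17, limma adjusted p = 0.00134). In LAN-1, 0.450% of all tested genes passed, with 0.172% rises and 0.279% falls, and of the 10 genes ASS1 passed. LAN-1 Hmx1 replicate 1 carried the highest ASS1 value of its arm, and without it the change was 1.19 (limma adjusted p = 0.00754). Fibroblast, endothelial and leukocyte marker sums overlapped between the LAN-1 arms, with fibroblast sums at 15.4 to 50.5 TPM with Hmx1 and 21.0 to 30.8 TPM in controls. Within the fibroblast list, LUM was at 3.39 to 3.89 TPM with Hmx1 and 1.54 to 2.20 TPM in controls. PDGFRA went the other way, at 2.44 to 3.59 and 5.01 to 5.27 TPM. Of the 7 fibroblast markers 0 passed, and 1 rose under either other scaling (median-ratio or quantile). The part of tumour and stromal markers in the rise of ASS1 was not tested. The groups did not overlap for 3 of the 10 genes in LAN-1, against 15.8% of all tested genes. These were ASS1, PSAT1 and SHMT2.

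The level of ASS1 in LAN-1 Hmx1 tumours reached that of SKNAS. SKNAS tumours held 656, 696 and 715 TPM with Hmx1 and 804, 621 and 721 TPM in controls, which overlap. KELLY tumours held 37.1, 33.8 and 58.9 TPM with Hmx1 and 38.2, 45.5 and 43.8 TPM in controls, which overlap too. The changes in those lines were -0.05 (SKNAS) and -0.02 (KELLY), with 95% intervals of -0.40 to 0.31 and -0.37 to 0.34. The 14 ASS1 pseudogenes in the tables summed to at most 1.49 TPM in a library. The unnamed gene ENSG00000238298, which overlaps ASS1 on the same strand, reached at most 7.23 TPM.

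ASL (ENSG00000126522, GRCh37 chromosome 7, 65540785 to 65558545, plus strand), the lyase that completes arginine, did not change with Hmx1 past the threshold in any line. It averaged 19.2 ± 2.48 TPM in LAN-1 Hmx1 tumours and 21.1 ± 2.68 TPM in LAN-1 control tumours. The ratio of ASS1 to ASL within a library was 41.6, 33.9 and 44.0 in LAN-1 Hmx1 tumours, against 14.8, 13.6 and 18.9 in LAN-1 controls. In KELLY it was 0.614 to 1.14 with Hmx1 and 0.653 to 0.798 in controls. ASL thus exceeded ASS1 in 5 of the 6 KELLY libraries, while ASS1 exceeded ASL at least 13.6 times in each library of the other lines.

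**Figure D2:**
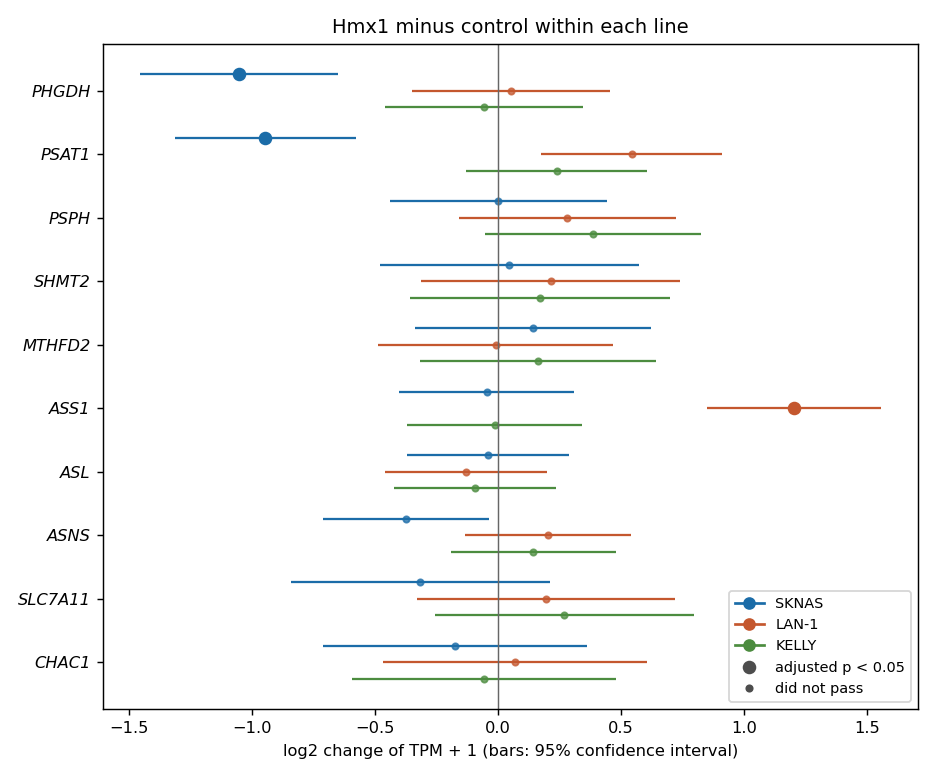
Hmx1 minus control on the log2(TPM + 1) scale for the 10 genes within each line, with 95% confidence intervals from limma. Large symbols passed at an adjusted p under 0.05: PHGDH and PSAT1 in SKNAS, at -1.05 and -0.95, and ASS1 in LAN-1, at 1.20.

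The difference between lines in these effects was tested directly. The effect on PSAT1 in SKNAS was lower than that in LAN-1 by 1.49 (a difference of -1.49, SE 0.25, limma adjusted p = 0.000949) and the difference to KELLY was -1.18 (SE 0.25, limma adjusted p = 0.00704). For PHGDH the differences were -1.10 to LAN-1 (SE 0.27, limma adjusted p = 0.0211) and -0.997 to KELLY (limma adjusted p = 0.0406). For ASS1 the effect in SKNAS minus that in LAN-1 was -1.25 (SE 0.24, limma adjusted p = 0.00306), and the effect in LAN-1 minus that in KELLY was 1.22 (SE 0.24, limma adjusted p = 0.0469). The remaining genes did not pass in these comparisons: 3 of 10 passed between SKNAS and LAN-1, 2 of 10 between SKNAS and KELLY and 1 of 10 between LAN-1 and KELLY, against 4.99%, 4.85% and 0.209% of all tested genes. Of the 18 fits that each left out a single library, the PHGDH difference to KELLY did not pass in 14 and the ASS1 difference between LAN-1 and KELLY in 16, with limma adjusted p up to 0.112 and 0.129. The PHGDH difference to LAN-1 did not pass in 5 of them, among them the fit without LAN-1 Hmx1 replicate 1 (-0.93, limma adjusted p = 0.0542). Averaged over the lines, the effect of Hmx1 on ASS1 was 0.38 (limma adjusted p = 0.0362), the single gene of the 10 that passed, against 3.54% of all tested genes. The SKNAS and KELLY changes behind that mean lay near 0, and it did not pass in 12 of the 18 fits without a single library (limma adjusted p up to 0.0814). Under median-ratio and quantile scaling ASS1 did not pass (limma adjusted p = 0.0895 and 0.107), and PHGDH, at -0.35 in the fit given here (limma adjusted p = 0.107), passed instead at -0.34 and -0.37 (0.0167 and 0.00818).

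In KELLY 0 of the 10 genes passed with limma, against 0.0912% of all tested genes. An unadjusted p under 0.05 was held by 0 of the 10, and the share of all genes at that limit was not counted. The change closest to passing was that of PSPH, at 27.7 ± 3.62 TPM with Hmx1 and 21.5 ± 6.30 TPM in controls, a change of 0.38 with a 95% interval of -0.05 to 0.82. It was 0.17 without KELLY control replicate 1 and 0.59 without KELLY control replicate 3, and passed in neither fit (limma adjusted p = 0.763 and 0.510). For 0 of the 10 did the KELLY arms fail to overlap, against 6.67% of all tested genes.

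SHMT2 (ENSG00000182199, GRCh37 chromosome 12, 57623110 to 57628718, plus strand) is the mitochondrial serine hydroxymethyltransferase. It averaged 63.0 ± 4.95 TPM in SKNAS Hmx1 and 61.9 ± 13.3 TPM in SKNAS control tumours, 441 ± 27.8 and 380 ± 15.8 TPM in LAN-1 Hmx1 and control tumours, and 154 ± 37.7 and 142 ± 54.7 TPM in KELLY Hmx1 and control tumours. The LAN-1 libraries lay at 454, 409 and 459 TPM with Hmx1, against 396, 379 and 364 TPM in controls, without overlap, and the change of 0.21 did not pass (95% interval -0.31 to 0.74). NDUFA4L2 overlaps SHMT2 on the opposite strand at 3.76 to 108.89 TPM, and whether counting used strand is not stated in these sources. MTHFD2 (ENSG00000065911, GRCh37 chromosome 2, 74425689 to 74444692, plus strand), the next enzyme of the mitochondrial folate route, averaged 55.6 ± 4.95 and 50.3 ± 5.53 TPM in SKNAS Hmx1 and control tumours. It averaged 145 ± 9.67 and 147 ± 13.6 TPM in LAN-1 Hmx1 and control tumours, and 74.8 ± 2.57 and 71.5 ± 31.1 TPM in those of KELLY. The arms of each line overlap for MTHFD2. Its pseudogene MTHFD2P1 averaged 3.56 and 6.42 TPM in SKNAS Hmx1 and control tumours and stayed under 0.05 TPM in the other lines.

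ASNS (ENSG00000070669, GRCh37 chromosome 7, 97481430 to 97501854, minus strand) is asparagine synthetase. It averaged 46.1 ± 4.89 and 59.97 ± 5.98 TPM in SKNAS Hmx1 and control tumours, 180.3 ± 25.4 and 156 ± 8.35 TPM in those of LAN-1, and 54.1 ± 5.52 and 49.4 ± 9.33 TPM in those of KELLY. LAN-1 stands above the other lines in both arms. SLC7A11 (ENSG00000151012, GRCh37 chromosome 4, 139085251 to 139163503, minus strand) was the lowest of the 10, at 0.868 ± 0.0541 and 1.33 ± 0.0934 TPM in SKNAS Hmx1 and control tumours, 8.31 ± 2.29 and 6.995 ± 0.682 TPM in those of LAN-1, and 1.46 ± 0.983 and 0.998 ± 0.555 TPM in those of KELLY. At levels near 1 TPM the scale understates fold changes. CHAC1 (ENSG00000128965, GRCh37 chromosome 15, 41245160 to 41248710, plus strand) averaged 3.99 ± 0.522 and 4.63 ± 0.573 TPM in SKNAS Hmx1 and control tumours, 10.7 ± 4.68 and 9.61 ± 1.77 TPM in those of LAN-1, and 3.35 ± 0.255 and 3.61 ± 1.09 TPM in those of KELLY. The Hmx1 and control arms of each line overlap for CHAC1.

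Between lines, most of the 10 genes were highest in LAN-1, with ASS1 highest in SKNAS among controls and ASL highest in KELLY. In LAN-1 minus KELLY control tumours, 9 rose and ASL fell, 10 of 10 against 51.8% of all tested genes, of which 38.2% rose and 13.6% fell. The largest differences were those of ASS1 at 2.92, PSAT1 at 2.25, PHGDH at 2.04 and SLC7A11 at 2.03, against a median of 0.34 over all tested genes. ASL differed by -1.45, and PSPH by 0.53, which did not pass under both other scalings (0.07 and 0.06) or without KELLY control replicate 1 (0.32, limma adjusted p = 0.20). MYCN was at 867 ± 30.5 TPM in LAN-1 and 1424 ± 533 TPM in KELLY control tumours.

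In SKNAS minus LAN-1 control tumours, 9 of the 10 passed, 2 upward and 7 downward, against 52.0% of all tested genes (31.5% and 20.5%), and the median over all genes was 0.18. SHMT2 at -2.62, PHGDH at -2.30, SLC7A11 at -1.78, MTHFD2 at -1.53, ASNS at -1.36, PSAT1 at -0.95 and CHAC1 at -0.90 were lower in SKNAS. ASS1 at 1.12 and ASL at 0.87 were higher, and PSPH at 0.25 did not pass. These 2 arginine genes thus ran against the other 7. In SKNAS minus KELLY control tumours, 5 of the 10 passed, against 65.7% of all tested genes, and the median over all genes was 0.54. ASS1 at 4.04, PSAT1 at 1.30 and PSPH at 0.78 were higher in SKNAS, and SHMT2 at -1.12 and ASL at -0.58 lower. The PSPH difference was 0.16 and 0.12 under the other scalings, where it did not pass.

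The Hmx1 arms, which are other libraries, were compared in the same way after the control arms had been seen. The medians over all tested genes were 0.23, 0.52 and 0.25 in the order given here. In SKNAS minus LAN-1, 8 of the 10 passed, against 53.1% of all tested genes. PHGDH differed by -3.40 and PSAT1 by -2.43, while ASS1, at -0.13 (limma adjusted p = 0.534), no longer passed. In SKNAS minus KELLY, 4 of the 10 passed, against 64.8%: ASS1 at 4.005, PHGDH at -1.25, SHMT2 at -1.25 and ASL at -0.53. PSAT1, higher in SKNAS among controls, was at 0.12 (limma adjusted p = 0.562), and turned to -0.46 and -0.34 under the other scalings, where it passed. In LAN-1 minus KELLY, 9 of the 10 passed, against 49.9%, with ASS1 at 4.14 and ASL at -1.49, and PSPH at 0.42 did not (limma adjusted p = 0.101).

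**Figure D3:**
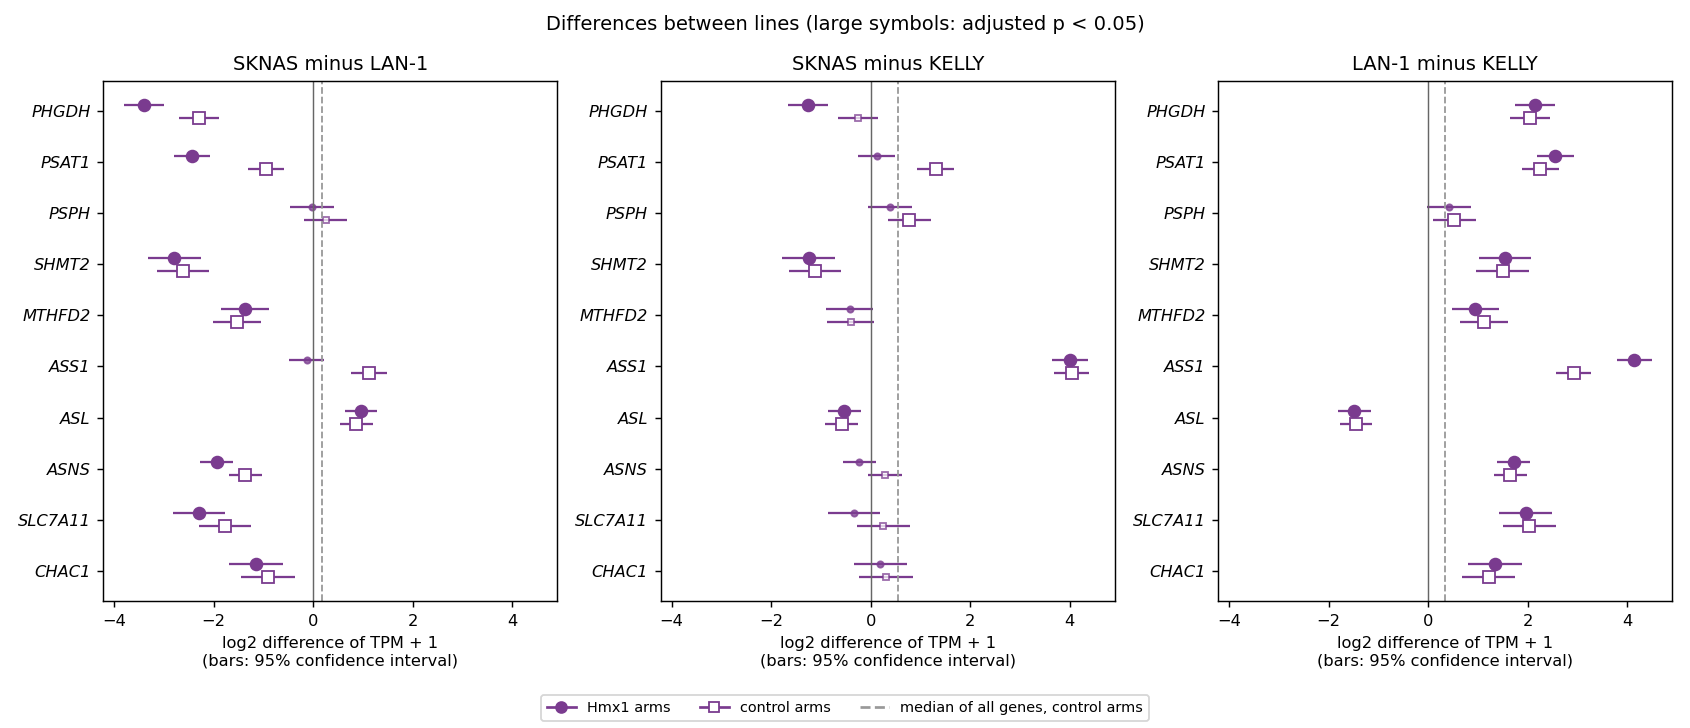
Differences between lines for the 10 genes on the log2(TPM + 1) scale, with 95% confidence intervals from limma. Circles are Hmx1 arms, squares control arms, large symbols passed at an adjusted p under 0.05, and the dashed line is the median of all tested genes in the control arms. In SKNAS minus LAN-1, ASS1 lies at -0.13 in the Hmx1 arms and at 1.12 in the control arms, and PHGDH and PSAT1 lie further left in the Hmx1 arms of SKNAS.

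The order of the group means sets the lines apart for PHGDH and PSAT1, but not for every gene. For ASS1, LAN-1 Hmx1 tumours lay above both SKNAS arms and LAN-1 control tumours below them, at 755 and 327 TPM. PHGDH and PSAT1 were each highest in the LAN-1 arms, and PHGDH was lowest in SKNAS Hmx1 tumours. PSAT1 in SKNAS Hmx1 tumours, at 67.3 ± 2.01 TPM, lay next to KELLY Hmx1 and KELLY control tumours, at 61.9 ± 2.57 and 53.9 ± 15.4 TPM. For PHGDH, SKNAS control tumours at 75.7 ± 12.9 TPM lay next to KELLY Hmx1 and KELLY control tumours at 86.5 ± 7.40 and 91.8 ± 25.1 TPM, within their spread. The levels of PSPH lay closest together, and its 6 group means span 0.81 on the log2 scale, against 4.14 for ASS1 and 3.40 for PHGDH.

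Over the 6 group means, the genes most like a member were those with the smallest root mean square difference on the log2 scale, after each gene's own average was subtracted. For PHGDH they were PIPOX at 0.262 and HMOX1 at 0.268, for PSAT1 NEGR1 at 0.160 and EPB41L4A at 0.185, and for ASS1 SLC35D2 at 0.270 and INSM1 at 0.272. The patterns of ASL and ARHGEF6, at 0.0353, and of ASNS and CLXN, at 0.0578, lay closest. The 6 points of such a comparison share libraries and scaling, and the values are descriptions.

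Other genes of these pathways were counted from lists. In SKNAS, 2 of 18 tested serine, glycine and folate genes rose with Hmx1 and 0 fell, against 4.96% and 3.80% of all tested genes. The counts were 2 and 1 under either other scaling. PHGDH and PSAT1 are not part of that list. GLDC, the decarboxylase of the glycine cleavage system, averaged 5.66 ± 1.15 TPM in SKNAS Hmx1 tumours and 0.282 ± 0.121 TPM in SKNAS controls, and rose by 2.37 (limma adjusted p = 6.55e-07). AMT, its partner aminomethyltransferase, averaged 32.5 ± 3.81 and 17.0 ± 2.37 TPM and rose by 0.90. The rise of AMT did not pass without SKNAS control replicate 1 (0.81, limma adjusted p = 0.0539). The list's median change was -0.03, against 0.00 over all tested genes.

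Of 13 tested urea cycle and arginine genes in SKNAS, 2 rose and 1 fell with Hmx1. The shares of all tested genes were 4.96% and 3.80%. NOS1, the neuronal nitric oxide synthase, which uses arginine, averaged 3.65 ± 0.931 TPM in SKNAS Hmx1 tumours and 31.5 ± 8.39 TPM in SKNAS controls, and fell by 2.79 (limma adjusted p = 1.70e-08). NOS2, the inducible form, averaged 1.61 ± 0.457 and 0.0213 ± 0.0185 TPM and rose by 1.34, and GATM, which takes arginine into creatine synthesis, averaged 12.8 ± 2.73 and 3.24 ± 1.08 TPM and rose by 1.71. NOS2 is also known from macrophages. The markers CD68, CSF1R, AIF1 and LYZ averaged 0.706, 0.274, 0.0676 and 0 TPM in SKNAS Hmx1 tumours. In SKNAS controls they averaged 0.546, 0.0386, 0 and 0.220 TPM. Of the same marker list, PTPRC rose, at 231 TPM with Hmx1 and 91.9 TPM in controls, and CD14 averaged 0.523 and 1.34 TPM. The source of NOS2 was not tested. The list's median change was 0.17, against 0.00 over all tested genes.

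Of 24 tested regulators and targets of the amino acid response in SKNAS, 1 rose and 2 fell with Hmx1 (1 and 3 under either other scaling). The shares of all tested genes were 4.96% and 3.80%. An unadjusted p under 0.05 was held by 5 of the list. The share of all genes under that unadjusted limit was not counted in any line. The list's median change was -0.04, against 0.00 over all tested genes. STC2, a secreted stanniocalcin, averaged 4.01 ± 0.287 TPM in SKNAS Hmx1 tumours and 1.56 ± 0.863 TPM in SKNAS controls and rose by 1.02, which did not pass without SKNAS control replicate 1 (0.79, limma adjusted p = 0.0686). CEBPB, a partner of ATF4, averaged 1.97 ± 0.157 and 4.03 ± 0.740 TPM and fell by 0.75, and the stress gene NUPR1 averaged 6.05 ± 1.97 and 10.7 ± 2.33 TPM and fell by 0.75. The fall of NUPR1 did not pass without SKNAS control replicate 2 (-0.60, limma adjusted p = 0.0814) or SKNAS Hmx1 replicate 2 (-0.49, limma adjusted p = 0.0755). ATF4 itself averaged 278 ± 34.9 and 258 ± 7.94 TPM (change 0.10, limma adjusted p = 0.781). With limma, 0 of 18 aspartate, glutamine and proline genes, 0 of 19 cytosolic aminoacyl-tRNA synthetases and 0 of 19 glutathione and cystine genes passed, and 1, 0 and 3 of them had an unadjusted p under 0.05. In LAN-1 and in KELLY, 0 genes of these 6 lists passed with limma, against 0.450% and 0.0912% of all tested genes. An unadjusted p under 0.05 was held by 5 and 2 of their genes.

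**Figure D4:**
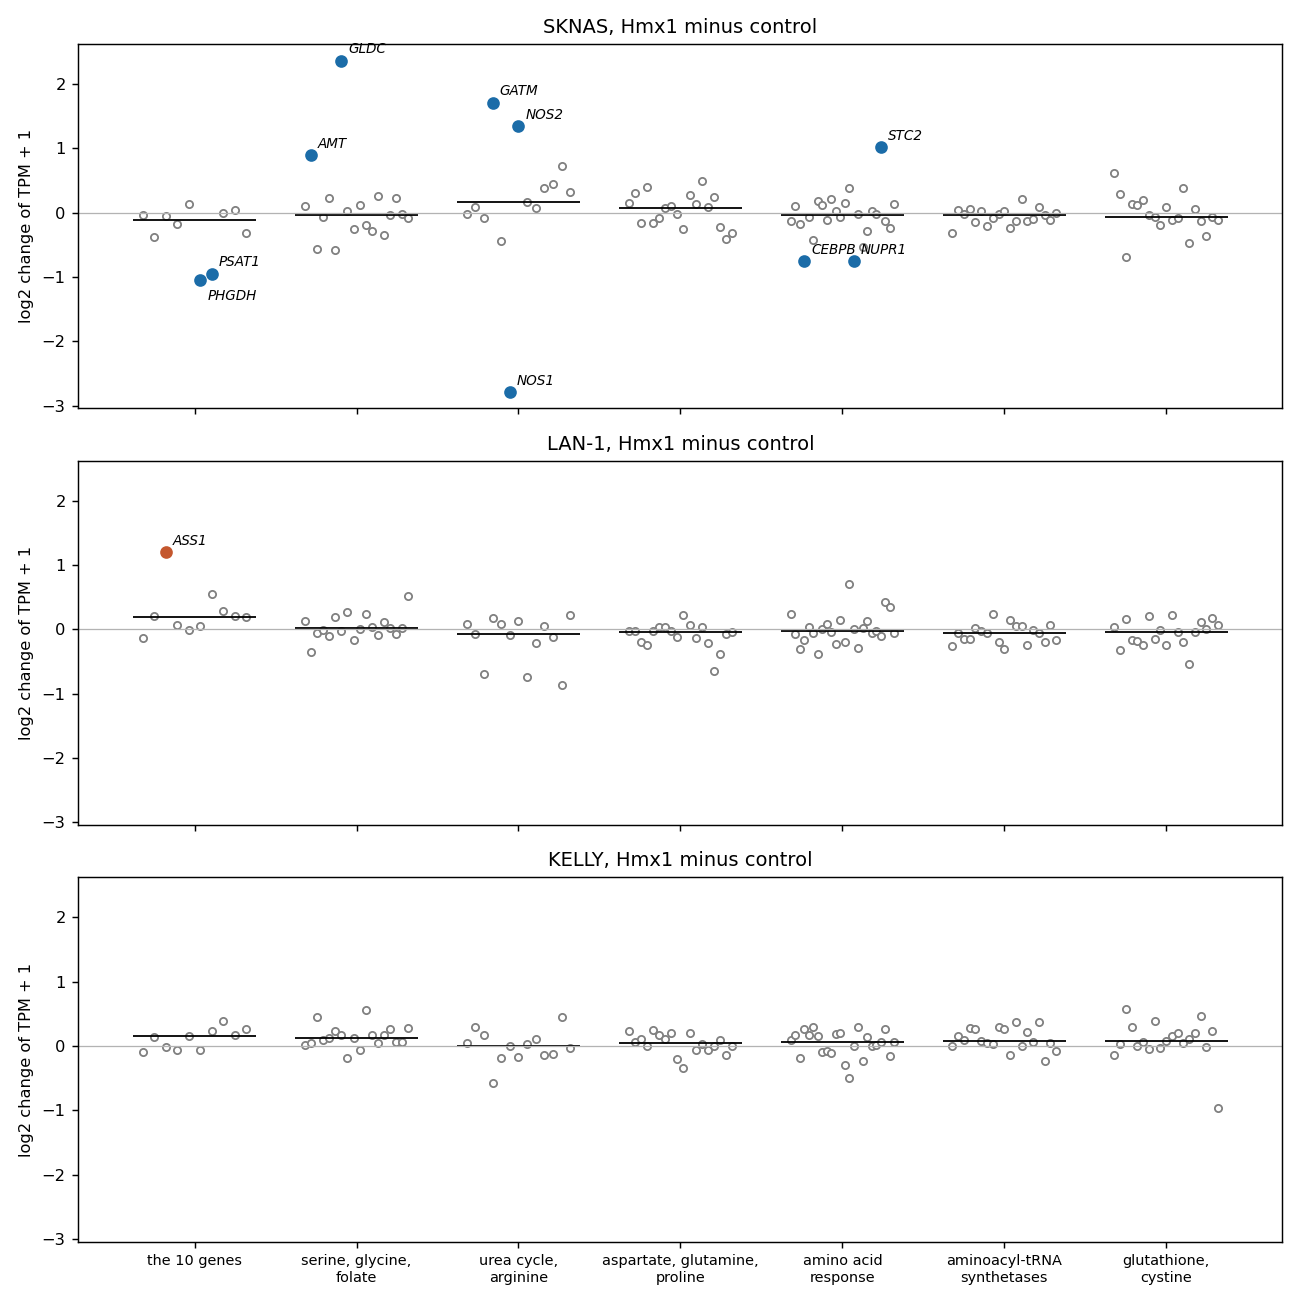
Hmx1 minus control on the log2(TPM + 1) scale for the 10 genes and for 6 lists of pathway genes in each line. Filled, named points passed at an adjusted p under 0.05, open points did not, and bars are list medians. In SKNAS the points that passed lie on both sides of 0, from NOS1 at -2.79 to GLDC at 2.37, and in LAN-1 ASS1 is the single filled point.

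Between control arms the lists differed more. In LAN-1 minus KELLY, 16 of 24 amino acid response genes rose and 0 fell, and 12 of 19 aminoacyl-tRNA synthetases rose and 0 fell, against 38.2% of all tested genes that rose. Their median differences were 0.75 and 0.64, against 0.34 over all tested genes. With median-ratio scaling the counts were 10 rises and 2 falls, and 6 rises and 2 falls. ATF5, a factor of the same response, averaged 49.5 ± 23.3 TPM in LAN-1 and 6.05 ± 2.70 TPM in KELLY control tumours, a difference of 2.83, and CARS1, the cysteinyl-tRNA synthetase, averaged 63.2 ± 3.89 and 17.1 ± 1.70 TPM, a difference of 1.83. ATF4 averaged 715 ± 28.6 TPM in LAN-1 and 395 ± 46.8 TPM in KELLY control tumours. GLDC differed by 2.67 and ALDH1L2, the mitochondrial formyltetrahydrofolate dehydrogenase, by 2.22, both higher in LAN-1. Of 19 listed serine, glycine and folate genes 8 rose and 2 fell, and of 15 listed urea cycle and arginine genes 7 and 1. Of 19 listed aspartate, glutamine and proline genes 10 rose and 1 fell, and of 19 glutathione and cystine genes 10 and 3. Over all tested genes 38.2% rose and 13.6% fell. With median-ratio scaling these counts were 6 and 5, 3 and 1, 6 and 2, and 6 and 4.

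In SKNAS minus LAN-1 control tumours, 6 of 24 amino acid response genes rose and 13 fell, against 31.5% and 20.5% of all tested genes. VLDLR, a lipoprotein receptor, at -4.25 and STC2 at -3.15 were lower in SKNAS. NUPR1 at 3.53 was higher in SKNAS, with 10.7 ± 2.33 TPM there and 0 TPM in each LAN-1 control library. GLDC, at -5.10, averaged 0.282 ± 0.121 TPM in SKNAS and 42.8 ± 0.872 TPM in LAN-1 control tumours. Of the arginine genes, CPS1, which makes carbamoyl phosphate for the urea cycle, averaged 44.8 ± 9.50 TPM in SKNAS and 2.35 ± 0.262 TPM in LAN-1 control tumours, a difference of 3.76. NOS1 differed by 4.70, and the arginine importer SLC7A1 by -2.01. Of 15 listed urea cycle and arginine genes 5 rose and 4 fell. Of 19 listed serine, glycine and folate genes 6 rose and 4 fell.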

How the data were processed

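RNA of xenograft tumours was measured in 18 libraries, 3 per arm of each line, which the labels do not tie to separate animals, with groups taken from the sample titles. The replicate numbers were given here, in the order of those titles within each arm. The TPM values, and the FPKM values used as an alternative, are deposited columns per the file headers. The submitters' processing notes name STAR, bcl2fastq and FastQC, and the builds GRCh37 and GRCh38.p12 without saying which served the tables. The quantifier, annotation, strand setting and handling of mouse reads: not given in the sources used here. Coordinates are those of the files, read as GRCh37 because the last gene of chromosome 1 ends at 249231242, beyond 248937099 in RefSeq GRCh38.p14. Symbols were matched by Ensembl identifier (52181 of 63677). TPM of identifiers on several lines were summed.

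Genes with at least 1 TPM in at least 3 libraries (18650) were fitted as log2(TPM + 1) on 6 group means with limma 3.58.1 in R 4.3.3, with a mean-variance trend and all libraries sharing 1 spread (12 residual degrees of freedom), and tested two-sided. A call was a Benjamini-Hochberg adjusted p under 0.05 over all genes. There were 10 planned comparisons, and 3 between Hmx1 arms were added after the data were seen. The fit was tested on simulated data. Besides the 10 genes, the text names listed genes that passed in the comparison (at most the 6 largest changes per list). It also names the 2 genes most like a member and the 3 highest pseudogenes or overlapping genes. ATF4, MYCN, HMX1, TH, CHGA and, in LAN-1, LUM and PDGFRA were named after their values were seen. The genes and lists were chosen with earlier results of these data known. Withheld genes were left out of the lists, and are not reported here.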

Additional observations from a re-analysis of the deposited data

Results flagged for a closer look

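The effect of Hmx1 differed between lines for 3 of the 10 genes, by a limma test of the difference itself. PSAT1 had an effect in SKNAS that differed from that in LAN-1 by -1.49 (adjusted p = 0.000949) and from that in KELLY by -1.18 (adjusted p = 0.00704). PHGDH had differences of -1.10 to LAN-1 (adjusted p = 0.0211) and -0.997 to KELLY (adjusted p = 0.0406). ASS1 had a difference of -1.25 between SKNAS and LAN-1 (adjusted p = 0.00306) and of 1.22 between LAN-1 and KELLY (adjusted p = 0.0469). Both differences of PSAT1, and both of PHGDH, rest on the same 6 SKNAS libraries, and both of ASS1 on the same 6 LAN-1 libraries, so neither of a pair is independent of the other.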

How the results depend on the processing

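In all 29 alternatives the falls of PHGDH (-1.20 to -0.96) and PSAT1 (-1.01 to -0.82) in SKNAS, the rise of ASS1 in LAN-1 (1.16 to 1.27), the PSAT1 differences of effect from SKNAS to both other lines and the ASS1 difference between SKNAS and LAN-1 kept their direction and passed. The number of the 10 genes called in LAN-1 was 1, and 2 with median-ratio scaling and with LAN-1 Hmx1 replicate 1 and KELLY control replicate 1 both left out, and 1 to 2 without single libraries. For the mean effect it was 1, then 0 with at least 1 TPM in at least 9 libraries and without the mean-variance trend, 2 with FPKM and without mitochondrial transcripts, and 0 to 2 without single libraries. Under both other scalings the count stays at 1 but the gene changes, as ASS1 no longer passes and PHGDH does; over all 28 alternatives ASS1 did not pass in 17 and PHGDH passed in 7. In SKNAS it was 2, and 2 to 3 under the alternatives, the third being SLC7A11. For the effect in SKNAS minus KELLY it was 2, then 1 with no filter, with the 9-library filter, without the trend and with the libraries of the comparison alone, and 1 to 2 without single libraries. For that in LAN-1 minus KELLY it was 1, then 0 under those 4 settings, under both other scalings and with both libraries left out, and 0 to 1 without single libraries. For SKNAS minus LAN-1 it was 3, and 2 to 3 without single libraries. In the Hmx1 arms of SKNAS minus KELLY it was 4, and 8 under either other scaling (median-ratio or quantile), where PSAT1 reversed to -0.46 and -0.34 against 0.12. The cause was not tested. PHGDH in the control arms of SKNAS minus KELLY passed in 5 alternatives, at -0.89 with median-ratio scaling, and MTHFD2 in 6, at -0.76 without KELLY control replicate 1. Over all genes, SKNAS calls numbered 1634, and 933 to 2356 under the alternatives that keep all libraries or leave out both doubted ones; LAN-1 calls 84 (27 to 177), KELLY calls 17 (0 to 49) and calls for the mean effect 660 (282 to 1243). The differences of effect had 931 (438 to 1522) for SKNAS minus LAN-1, 904 (430 to 1399) for SKNAS minus KELLY and 39 (8 to 66) for LAN-1 minus KELLY. Fitting the libraries of the comparison alone was not run for the mean effect, which uses all. No paired analysis was possible because the labels themselves carry no replicate numbers, and those used here only follow sample order. Depth is unknown, so the precision of SLC7A11, near 1 TPM in 2 lines, rests on the spread between libraries alone.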
